A study of Mus musculus with 54 samples.

Results

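The genes described here are the nuclear genes of the mitochondrial respiratory chain that the platform annotation lists under the symbols Nduf, Sdha to Sdhd with the Sdhaf assembly factors, Uqcr, Cox4 to Cox8 and Atp5. Membership was set by the symbol, not by a measured value, and covers 94 of the 18193 genes that the array measured. Each gene was read from its brightest probe set over the 54 arrays, and 53 of the 94 had several probe sets. The members comprised 6 core and 28 accessory subunits of complex I, 4 subunits of complex II, 8 of complex III, 10 of complex IV and 17 of complex V. A further 12 were assembly factors, 8 were subunit isoforms known from other tissues, and 1 was the supercomplex factor Cox7a2l. They lay on 19 chromosomes.

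The study measured gene expression on Affymetrix arrays in brainstem, hippocampus and striatum of male mice of 6 inbred strains, C57L/J, C57BLKS/J, C57BL10/J, BalbC/J, C3H HeJ and C57BL6/J, which were studied for prepulse inhibition, the damping of a startle response by a weaker preceding stimulus. Within each strain and tissue, 1 array held mice tested for prepulse inhibition from postnatal day 50 on and 2 arrays held untested mice. All mice were killed on day 60. Each array pooled tissue of 3 mice from alternating hemispheres, so its value is a mean over animals and hides the spread between them. The labels name no transgene and no drug. The growth protocol named only 5 of the 6 strains and left out C57BL10/J, which the sample labels give. Tissues of a strain came from the same mice, but the labels do not say which pools match. Strain differences below are relative to C57BL6/J, whose 3 arrays in a tissue are shared by the 5 contrasts.

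The respiratory chain carries electrons from NADH through complex I, or from succinate through complex II, to ubiquinone, on through complex III and cytochrome c to complex IV, where oxygen is reduced. The protons pumped on the way drive ATP synthase, also called complex V. Most of the subunits are encoded in the nucleus and a smaller set in mitochondrial DNA, and in the brain this route supplies most of the ATP used by ion pumps and synapses. Several small subunits of complex IV exist in a form found in most tissues and a second form known from heart and skeletal muscle, lung or testis.

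The promoters of some members are printed because the isoform pairs among them differed in tissue pattern and because Ndufs5 and Ndufa12 were among the 6 members with the smallest p for strain in each tissue, Ndufa12 on its brightest probe set only. RefSeq windows on GRCm38.p6 run from 250 bases before to 50 bases after the annotated start, and 78 of the 94 members matched a window. Capitals mark matches on either strand to GCGCA and GCGC parted by any 1 base, the core of the site of NRF1, to CCGGAAG, the site of ETS factors such as GABPA, or to AAGATGGCG, the site of YY1. These factors are known regulators of nuclear respiratory genes. The windows are Cox6b2 at chr7:4753045-4753344, Cox6b1 at chr7:30626065-30626364, Cox8b at chr7:140900397-140900696, Cox8a at chr19:7217567-7217866 and Ndufs5 at chr4:123718137-123718436, all on the minus strand, and Ndufa12 at chr10:94198785-94199084 on the plus strand.
Cox6b2: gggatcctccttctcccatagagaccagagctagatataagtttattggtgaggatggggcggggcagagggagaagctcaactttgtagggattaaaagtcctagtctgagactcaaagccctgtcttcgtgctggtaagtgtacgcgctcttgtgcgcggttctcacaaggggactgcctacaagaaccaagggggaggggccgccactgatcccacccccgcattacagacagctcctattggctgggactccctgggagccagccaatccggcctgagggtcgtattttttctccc
Cox6b1: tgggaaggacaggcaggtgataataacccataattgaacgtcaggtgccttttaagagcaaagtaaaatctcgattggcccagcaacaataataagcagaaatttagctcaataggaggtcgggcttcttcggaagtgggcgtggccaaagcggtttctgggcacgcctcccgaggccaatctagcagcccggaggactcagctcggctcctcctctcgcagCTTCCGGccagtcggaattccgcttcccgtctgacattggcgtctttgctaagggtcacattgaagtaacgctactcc
Cox8b: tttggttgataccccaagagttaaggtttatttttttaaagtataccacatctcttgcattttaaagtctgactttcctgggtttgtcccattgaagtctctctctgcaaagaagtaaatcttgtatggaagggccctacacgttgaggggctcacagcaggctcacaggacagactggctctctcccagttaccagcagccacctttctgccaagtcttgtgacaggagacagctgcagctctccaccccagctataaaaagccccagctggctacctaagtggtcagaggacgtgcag
Cox8a: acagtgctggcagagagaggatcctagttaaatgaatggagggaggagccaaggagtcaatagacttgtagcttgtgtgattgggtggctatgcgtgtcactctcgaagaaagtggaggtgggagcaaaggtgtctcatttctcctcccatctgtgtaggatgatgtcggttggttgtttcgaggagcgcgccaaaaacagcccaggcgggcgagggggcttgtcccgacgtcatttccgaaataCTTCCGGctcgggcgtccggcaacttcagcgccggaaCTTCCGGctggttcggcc
Ndufs5: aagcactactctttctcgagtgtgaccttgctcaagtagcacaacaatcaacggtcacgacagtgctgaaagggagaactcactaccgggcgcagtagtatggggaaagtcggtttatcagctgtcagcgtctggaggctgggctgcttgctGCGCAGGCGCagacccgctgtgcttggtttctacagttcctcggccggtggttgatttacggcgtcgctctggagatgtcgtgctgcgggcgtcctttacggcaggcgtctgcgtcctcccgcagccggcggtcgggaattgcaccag
Ndufa12: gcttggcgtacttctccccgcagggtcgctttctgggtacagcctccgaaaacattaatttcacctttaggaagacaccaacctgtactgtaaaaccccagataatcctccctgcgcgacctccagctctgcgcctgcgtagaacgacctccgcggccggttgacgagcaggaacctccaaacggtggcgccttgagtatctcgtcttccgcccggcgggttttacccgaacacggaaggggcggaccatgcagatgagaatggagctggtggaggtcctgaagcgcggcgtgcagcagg
The windows of Cox6b1, Cox8a and Ndufs5 held 1 ETS match, 2 ETS matches and 1 NRF1 match, while those of Cox6b2, Cox8b and Ndufa12 held none of the 3 sets of letters. Of the 78 members with a window, 19 (24.4%) held the NRF1 letters, against 5.19% of all 27025 genes with a window. A gene was counted if any of its windows matched. The ETS letters occurred in 22 (28.2%), against 9.93%, and the YY1 letters in 7 (8.97%), against 1.64%. None of the 3 was found in the windows of the 4 restricted isoforms with a window. The GC box GGGCGG occurred in 39 of the 78 (50.0%), against 38.2% of all genes with a window, and TATAAA in 9 (11.5%), against 15.7%. The median member held 20 CpG dinucleotides per window, against 7 over all genes with a window and 8.5 over the 4 restricted isoforms. Motifs were searched on both strands, matches of different motifs may overlap, and a match is a match of letters.

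The median deposited log2 value over probe sets was 4.43 to 4.57 in brainstem, 4.53 to 4.72 in hippocampus and 4.17 to 4.31 in striatum. A gene was tested in a tissue where it exceeded the 40th percentile of the array on at least 3 arrays, and 88 members passed in each tissue. Most members were bright, and 87 lay above that level on all 54 arrays. Passing in no tissue were Cox4i2, the lung form of subunit IV, Cox7b2 and Cox8c, forms known from testis, Ndufa4l2, a paralog of Ndufa4 induced by low oxygen, and the complex I subunit Ndufb4. Ndufb4 was read from 1 probe set at a mean level of 2.17, so whether its transcript is present cannot be told from it. Markers followed the labelled tissues. The mean level of 6 brainstem markers was 8.93 to 10.43 in brainstem, 3.29 to 3.63 in hippocampus and 3.15 to 3.45 in striatum. Hippocampal markers averaged 10.07 to 10.57 in hippocampus and striatal markers 12.97 to 13.89 in striatum. The second untested C3H HeJ brainstem array stood apart. Its 9 cerebellar markers averaged 14.01, against a median of 9.38 over the brainstem arrays. Several of the C3H HeJ brainstem results below are given with and without this array. Other arrays also differed in neighbouring tissue. Cerebellar markers averaged 9.55 to 10.68 on the BalbC/J, 9.19 to 10.31 on the C57L/J and 8.89 to 10.11 on the C57BL10/J brainstem arrays. They averaged 8.35 to 8.90 in C57BLKS/J and 8.51 to 8.96 in C57BL6/J. In C3H HeJ brainstem the lowest and median array means were 9.21 and 9.73. Without the array that stood apart, the median difference of these markers between C3H HeJ and C57BL6/J was still 0.67. Choroid plexus markers ranged over 8.01 to 10.43 in brainstem, 5.04 to 8.79 in hippocampus and 5.13 to 9.48 in striatum. A C57L/J striatum array held the lowest striatal marker mean, 12.97, against a median of 13.80. Cortical markers ranged over 8.05 to 10.48 in striatum, with 8.25 to 10.48 in C57L/J, 8.38 to 9.38 in C3H HeJ and 8.05 to 8.93 in C57BL6/J.

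Most respiratory chain genes were brightest in brainstem. Relative to hippocampus, 81 of 89 members were higher in brainstem and 6 were lower at an adjusted p under 0.05 (limma, Benjamini-Hochberg over all genes tested). Relative to striatum, 79 were higher and 7 lower. Nearly every gene was called between tissues, 86.4% of all genes between brainstem and hippocampus and 89.6% between brainstem and striatum. The lowest value of an array also kept separate ranges, -0.12 to -0.08 in brainstem, -0.20 to -0.15 in hippocampus and -0.02 to 0.03 in striatum. Cox4i2, below the filter level on every array, read 1.89 to 2.00, 1.69 to 1.86 and 2.08 to 2.20 in that order. The labels name no processing batch, so tissue and processing by tissue cannot be told apart. The 89 include Cox6b2 and Cox6a2, which passed the filter only in the tissues where they were high. Of all genes, 45.6% were called higher in brainstem than in hippocampus and 60.5% higher than in striatum. The median log2 difference of the members was 0.43 against hippocampus, beside 0.02 over all genes, and 0.60 against striatum, beside 0.32 over all genes. In all, 78 of 89 members were higher in brainstem than in both other tissues, against 41.3% of all genes. In 46 members (51.7%) every brainstem array lay above all 36 other arrays, against 17.1% of all genes. These directions held when arrays were centred on their medians or quantile normalized. Higher than in hippocampus were then 82 and 81 of 89 members, beside 6865 and 6311 of 12885 genes. Higher than in striatum were 69 members in both cases, beside 6314 and 6601 of 13040 genes.

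**Figure D1:**
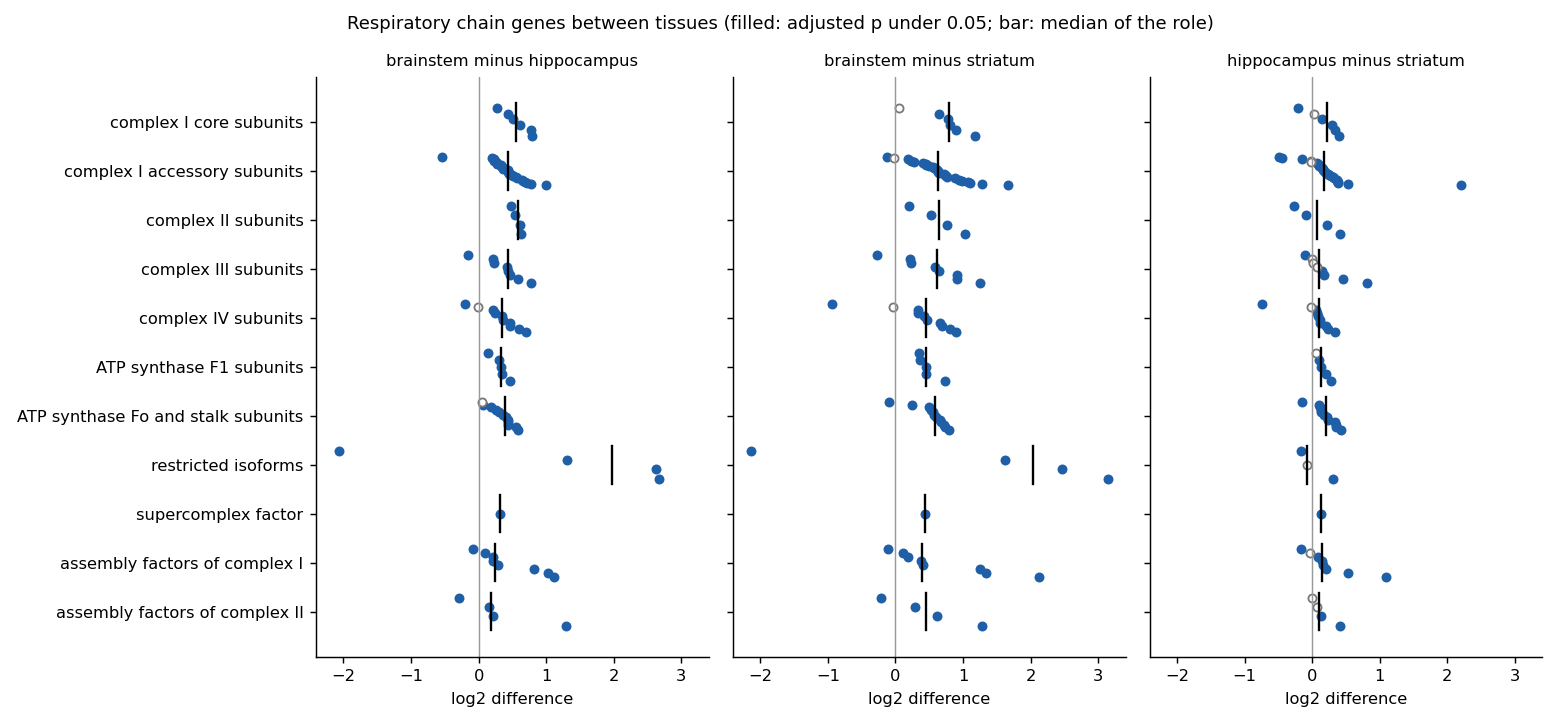
Log2 difference of each member between brainstem and hippocampus and between brainstem and striatum, grouped by role, with 0 marking equal levels. Most subunits of every complex lie above 0, and the restricted isoforms Cox6b2, Cox7a1 and Cox6a2 lie farthest from it.

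All complexes took part. Among complex I subunits 32 of 33 were higher in brainstem than in hippocampus (median 0.44) and 30 of 33 higher than in striatum (median 0.65). Ndufs1, the largest core subunit of complex I and a carrier of iron-sulfur clusters, had a lowest, median and highest level of 12.31, 12.42 and 12.47 in brainstem, 11.71, 11.90 and 12.01 in hippocampus and 11.55, 11.76 and 11.98 in striatum. The brainstem arrays of Ndufs1 did not overlap those of either other tissue, and the differences were 0.51 and 0.65.

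All 4 complex II subunits were higher in brainstem against either tissue, with medians of 0.58 and 0.65. Sdha, the flavoprotein that oxidizes succinate, had 13.03, 13.20 and 13.37 in brainstem, 12.51, 12.73 and 12.82 in hippocampus and 12.90, 12.99 and 13.11 in striatum, each as lowest, median and highest level. For Sdha the brainstem and hippocampus arrays were fully separated, while brainstem and striatum overlapped, with differences of 0.48 and 0.20.

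In complex III, 7 of 8 subunits were higher in brainstem in both comparisons, with medians of 0.43 and 0.62. The core subunit Uqcrc1 had 11.80, 12.09 and 12.39 in brainstem, 11.25, 11.51 and 11.71 in hippocampus and 11.22, 11.43 and 11.69 in striatum. The exception was Uqcr11, a small subunit, with log2 differences of -0.16 and -0.27 from hippocampus and striatum. Its partner Uqcrc2, the other core subunit, had 14.70, 14.88 and 15.13 in brainstem, 14.23, 14.44 and 14.63 in hippocampus and 13.24, 13.62 and 13.94 in striatum, so that its 3 tissues formed separate ranges.

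Complex IV had 8 of 10 subunits higher in brainstem in either comparison, with medians of 0.35 and 0.45. Cox4i1, the main form of subunit IV, had 14.67, 14.78 and 14.85 in brainstem, 14.31, 14.43 and 14.56 in hippocampus and 14.21, 14.29 and 14.38 in striatum. Ndufa4, first assigned to complex I and now counted with complex IV, was higher in brainstem by 0.46 and 0.80. Cox7c went the other way, with log2 differences of -0.20 ± 0.08 (SE, adjusted p = 0.0238) from hippocampus and -0.94 ± 0.08 (adjusted p = 1.24e-13) from striatum. Its brightest probe set was dim, with mean levels of 5.75, 5.94 and 6.69 in brainstem, hippocampus and striatum.

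For ATP synthase, 16 of 17 subunits were higher in brainstem in both comparisons, with medians of 0.35 and 0.56. Atp5b, the catalytic beta subunit, had 14.35, 14.47 and 14.56 in brainstem, 14.03, 14.08 and 14.32 in hippocampus and 13.85, 14.02 and 14.13 in striatum. No brainstem array of Atp5b fell within the range of another tissue, and the differences were 0.35 and 0.45. Cox7a2l, which links complexes III and IV, differed by 0.32 and 0.44, and its ranges overlapped, at 11.86 to 12.43 in brainstem and 11.74 to 12.09 in hippocampus.

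Assembly factors were less uniform in size. Of 12, 10 were higher and 2 lower in brainstem in each comparison, with medians of 0.21 and 0.39. Sdhaf3, an assembly factor of complex II, differed by 1.29 ± 0.05 from hippocampus (SE, adjusted p = 2.22e-23). Ndufaf6, an assembly factor of complex I, had 7.72, 8.24 and 8.58 in brainstem, 6.68, 7.25 and 7.48 in hippocampus and 5.19, 6.17 and 6.64 in striatum. Its 3 ranges did not overlap, and brainstem exceeded hippocampus by 1.02. Sdhaf1 ran the other way, at -0.29 ± 0.06 and -0.22 ± 0.06 (adjusted p = 3.37e-05 and 9.91e-04).

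Among the isoforms known from other tissues, 4 could be tested and 3 were higher in brainstem. Cox6b2, known as the testis form of subunit VIb, had a lowest, median and highest level of 4.32, 5.32 and 6.48 in brainstem, 2.51, 2.55 and 2.87 in hippocampus and 1.94, 2.05 and 2.45 in striatum. It was above the filter level only in brainstem and so entered the test only through that tissue, with differences of 2.68 ± 0.07 and 3.14 ± 0.07 that are given as a description. Cox6b1, the widely expressed form, differed by 0.46 and 0.69. Cox7a1, the heart and muscle form of subunit VIIa, had 5.64, 6.42 and 7.01 in brainstem, 3.50, 3.77 and 4.13 in hippocampus and 3.89, 3.95 and 4.03 in striatum. All brainstem arrays of Cox7a1 lay above all others, by 2.62 ± 0.05 (adjusted p = 9.56e-35) and 2.46 ± 0.05 (adjusted p = 5.98e-34). Its counterpart Cox7a2 differed by 0.34 and 0.42.

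**Figure D2:**
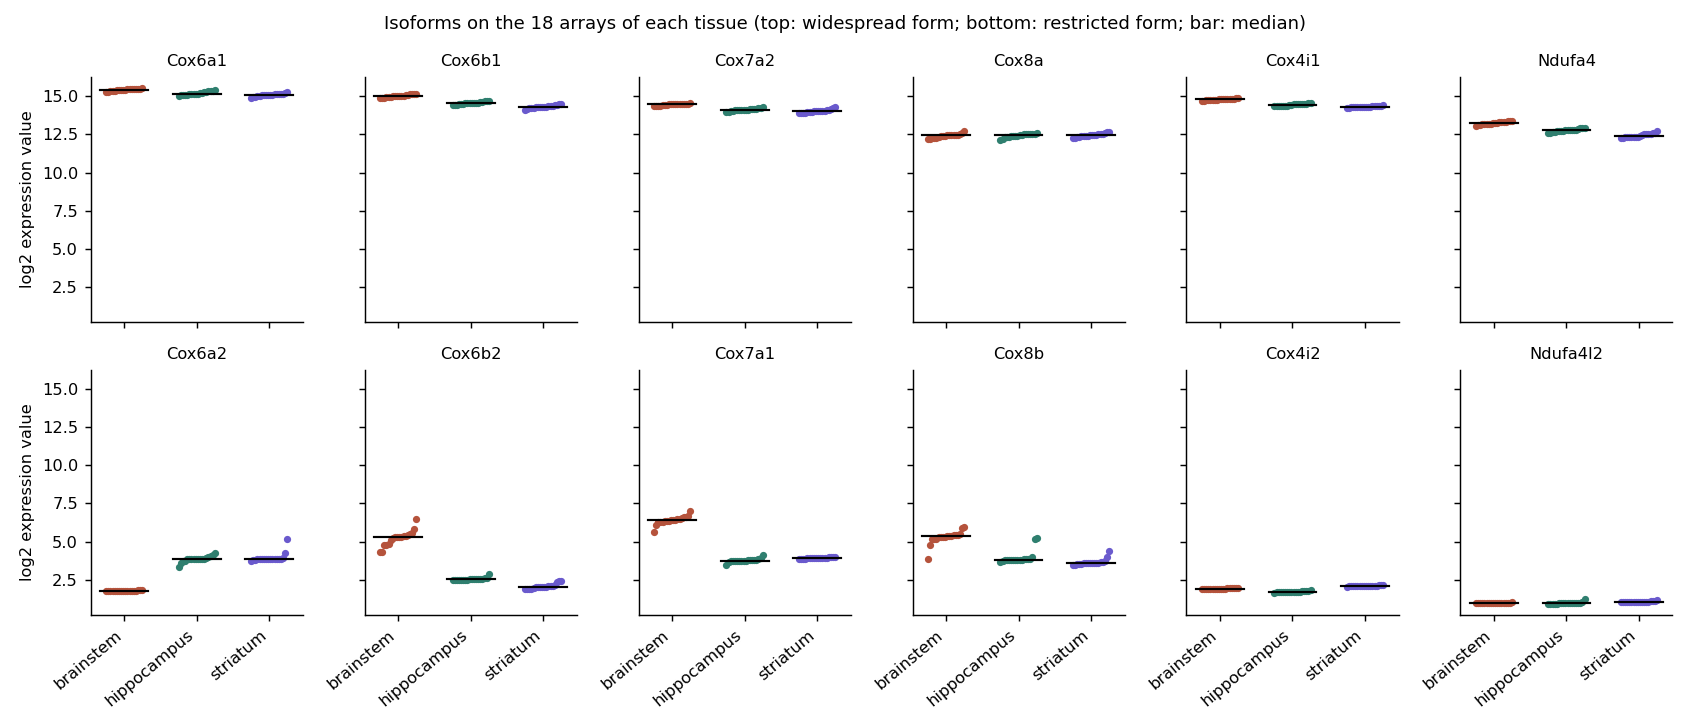
Deposited log2 level of isoform pairs of complex IV in each of the 18 arrays of brainstem, hippocampus and striatum. Cox6b2 and Cox7a1 lie above the other tissues on all brainstem arrays, Cox6a2 lies below them, and Cox8a spans about the same range in the 3 tissues.

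Cox8b, another heart and muscle form, had 3.87, 5.35 and 5.94 in brainstem, 3.66, 3.83 and 5.22 in hippocampus and 3.50, 3.62 and 4.39 in striatum. Its ranges overlapped, and the mean was 1.31 ± 0.12 higher in brainstem than in hippocampus (adjusted p = 5.38e-13). Its counterpart Cox8a had 12.19, 12.42 and 12.68 in brainstem, 12.14, 12.43 and 12.60 in hippocampus and 12.25, 12.43 and 12.66 in striatum. Cox8a missed the threshold, with differences of -0.02 (adjusted p = 0.714) and -0.04 (adjusted p = 0.385). Cox6a2, the muscle form of subunit VIa, was opposite to the other muscle forms, with 1.78, 1.81 and 1.84 in brainstem, 3.34, 3.88 and 4.25 in hippocampus and 3.73, 3.87 and 5.17 in striatum. It passed the filter only in hippocampus and striatum, and its differences of -2.07 ± 0.07 and -2.14 ± 0.07 are likewise a description. Cox6a1, the form of most tissues, differed by 0.22 and 0.33. The mean level of 4 measured muscle markers was 3.78 to 4.01 in brainstem, 4.81 to 5.35 in hippocampus and 4.68 to 5.09 in striatum. Acta1, the skeletal muscle actin, was lower in brainstem by log2 differences of -4.49 and -4.23, Myl1 was higher than in striatum by 0.43, and Myh4 and Myh6 were not called in either comparison.

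Ndufb1, an accessory subunit of complex I, had its own pattern, at 6.85 to 7.11 in brainstem, 7.44 to 7.65 in hippocampus and 5.03 to 5.54 in striatum. Its 3 ranges did not touch. It was read from 1 dim probe set, at a mean level of 6.62, so no second reading was at hand. Hippocampus exceeded striatum by 2.21 ± 0.03 (adjusted p = 1.76e-40), brainstem exceeded striatum by 1.66 ± 0.03, and brainstem differed from hippocampus by -0.54 ± 0.03 (adjusted p = 2.46e-20).

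Between hippocampus and striatum the members had no direction that survived rescaling. Of 88 members, 76 were called, beside 88.3% of all genes, with 65 higher and 11 lower in hippocampus. After median centring 7 were higher and 65 lower, beside 4485 and 6494 of 12789 genes. After quantile normalization 21 were higher and 54 lower, beside 5488 and 5644 of 12789 genes. In the deposited values the median difference was 0.14, beside 0.25 over all genes. The members named next held their sign under both rescalings. Besides Ndufb1, hippocampus exceeded striatum for Ndufaf6 by 1.10 ± 0.07, for Uqcrc2 by 0.81 ± 0.04 and for the complex I subunit Ndufb6 by 0.54 ± 0.03. It was below striatum for Cox7c (-0.75 ± 0.08) and for the complex I subunit Ndufa7 (-0.49 ± 0.03). Ndufs4, an accessory subunit, and Sdha were also lower in hippocampus, at -0.45 ± 0.03 and -0.27 ± 0.02, but their second brightest probe sets gave 0.10 and 0.07.

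Genes that work with the chain followed partly. Of 17 genes of the tricarboxylic acid cycle, 15 were higher and 1 lower in brainstem than in hippocampus (median 0.29), and 16 higher and 1 lower than in striatum (median 0.79). Sucla2, a subunit of succinyl-CoA synthetase, differed by 0.59 and 1.14. Of 8 partners of ATP synthase and of nucleotide exchange, 7 were higher in both comparisons, among them Slc25a4, an ADP/ATP carrier, by 0.40 and 0.59, and the outer membrane channel Vdac3 by 0.63 and 0.97. For the 14 electron carriers and related enzymes, 10 were higher and 4 lower than in hippocampus, and 12 higher and 2 lower than in striatum. Cytochrome oxidase assembly genes gave 10 higher and 2 lower of 14 in both comparisons, with medians of 0.15 and 0.58. Surf1, needed for complex IV assembly, differed by 0.56 and 0.95.

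The regulators of mitochondrial biogenesis were mixed, with 5 of 14 higher and 4 lower in brainstem than in hippocampus (median -0.02), and 8 higher and 5 lower than in striatum (median 0.22). Esrrg, a nuclear receptor that acts on respiratory genes, was 3.39 ± 0.04 and 2.84 ± 0.04 higher in brainstem (adjusted p = 1.35e-41 and 3.55e-39). Ppargc1a, the coactivator PGC-1alpha, was 0.63 ± 0.03 and 1.39 ± 0.03 higher. Glycolysis gave 8 higher and 4 lower of 13 against hippocampus, and 11 higher and 1 lower against striatum. Within lactate dehydrogenase the subunits ran in opposite directions. Ldhb, the heart type, was higher by 1.23 and 0.77, and Ldha, the muscle type, differed by -1.23 and -0.80.

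The tissues also differed in cell markers. The mean level of 9 oligodendrocyte markers was 13.18 to 13.98 in brainstem, 11.87 to 12.75 in hippocampus and 12.56 to 13.25 in striatum, and all 9 were higher in brainstem in each comparison. The 11 neuron markers averaged 13.31 to 13.68, 13.45 to 13.61 and 12.21 to 13.36 in brainstem, hippocampus and striatum. The 10 microglia markers averaged 7.03 to 8.51 in brainstem, 8.45 to 9.05 in hippocampus and 8.75 to 9.35 in striatum. The 8 astrocyte markers averaged 12.92 to 13.23 in brainstem, 12.38 to 12.76 in hippocampus and 11.75 to 12.17 in striatum. For 4 blood and vessel markers the means were 6.0 to 6.7, 4.9 to 5.2 and 4.5 to 5.4 in that order. The part of cell composition in the tissue differences was not tested, and in such bulk tissue fewer cells of a type and less RNA per cell cannot be told apart.

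In the deposited values, the share of members that differed among the 6 strains stood near that of all genes in hippocampus. It stood above that of all genes in striatum and below it in brainstem, with no test of these shares. The moderated F-test over strains called 32 of 88 members in hippocampus, beside 31.2% of all genes, 38 of 88 in striatum, beside 26.2%, and 17 of 88 in brainstem, beside 23.0%. After median centring 11 of 88 were called in hippocampus, beside 2708 of 12317 genes, and 25 in striatum, beside 2631 of 12320. In brainstem 18 were then called, beside 2751 of 12484. Quantile normalization gave 37, 42 and 20 of 88, beside 3898 of 12317, 3266 of 12320 and 2751 of 12484 genes. The order relative to all genes thus held under both rescalings in striatum only. Leaving out 1 C3H HeJ array changed the member counts of the deposited values. They became 24 and 21 in striatum without untested array 1 or 2, and 27 in brainstem without the array rich in cerebellar markers. Leaving out the tested C57L/J array also gave 27 in brainstem. The median span between the highest and lowest strain mean was 0.22, 0.30 and 0.18 for members, and 0.27, 0.36 and 0.30 for all genes. Called in at least 1 tissue were 59 of the 87 members tested in all, and 8 were called in all 3 tissues, beside 9.26% of all genes. Those 8 were the complex I subunits Ndufs5, Ndufa12, Ndufa3 and Ndufc2, with Sdhc, Uqcrq, Cox5b and Atp5g1.

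**Figure D3:**
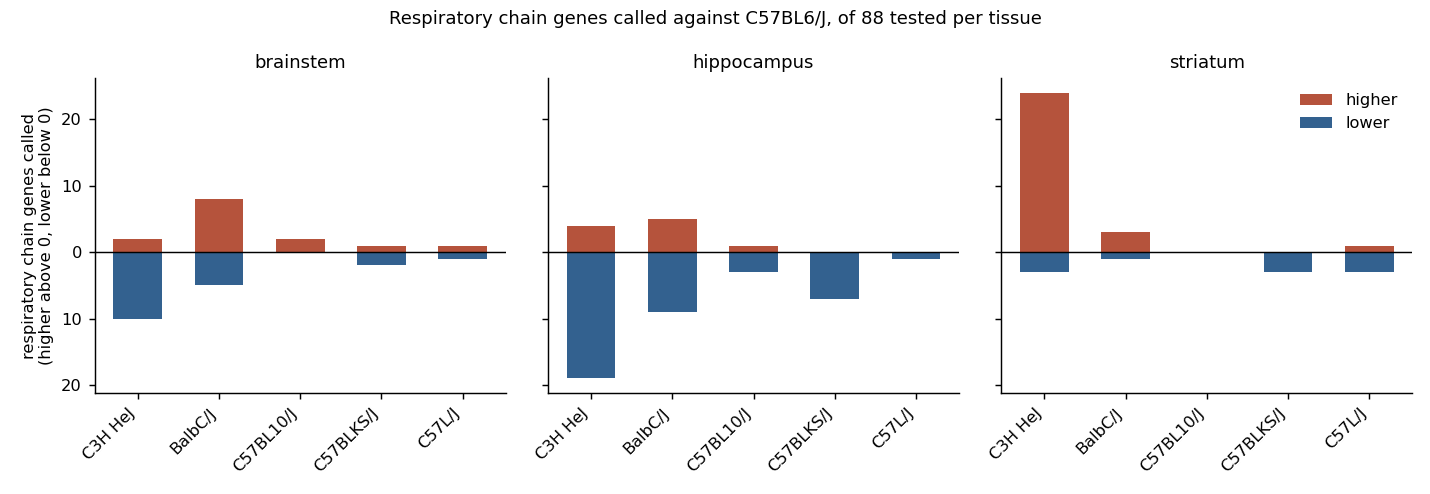
Number of members called higher or lower than in C57BL6/J at an adjusted p under 0.05, for each strain and tissue. C3H HeJ has 23, 27 and 12 calls in hippocampus, striatum and brainstem, mostly lower, higher and lower in that order, and C57BL10/J has at most 4.

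Ndufs5, an accessory subunit of complex I on chromosome 4 (123712710 to 123718186, GRCm38.p6), was low in C57BLKS/J in every tissue. In hippocampus the 3 C57BLKS/J arrays read 12.10, 12.10 and 12.09, against 12.83, 12.69 and 12.80 in C57BL6/J. In striatum they read 11.82, 11.82 and 12.09, against 12.65, 12.64 and 12.61, and in brainstem 12.39, 12.51 and 12.42, against 13.11, 13.06 and 13.04. The C57BLKS/J arrays lay below all 15 other arrays of the tissue each time. The differences were -0.68 ± 0.05 (SE, adjusted p = 7.24e-07) in hippocampus, -0.72 ± 0.08 (adjusted p = 8.18e-05) in striatum and -0.63 ± 0.04 (adjusted p = 2.34e-07) in brainstem. Ndufs5 was read from 1 probe set, so no second reading was at hand.

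**Figure D4:**
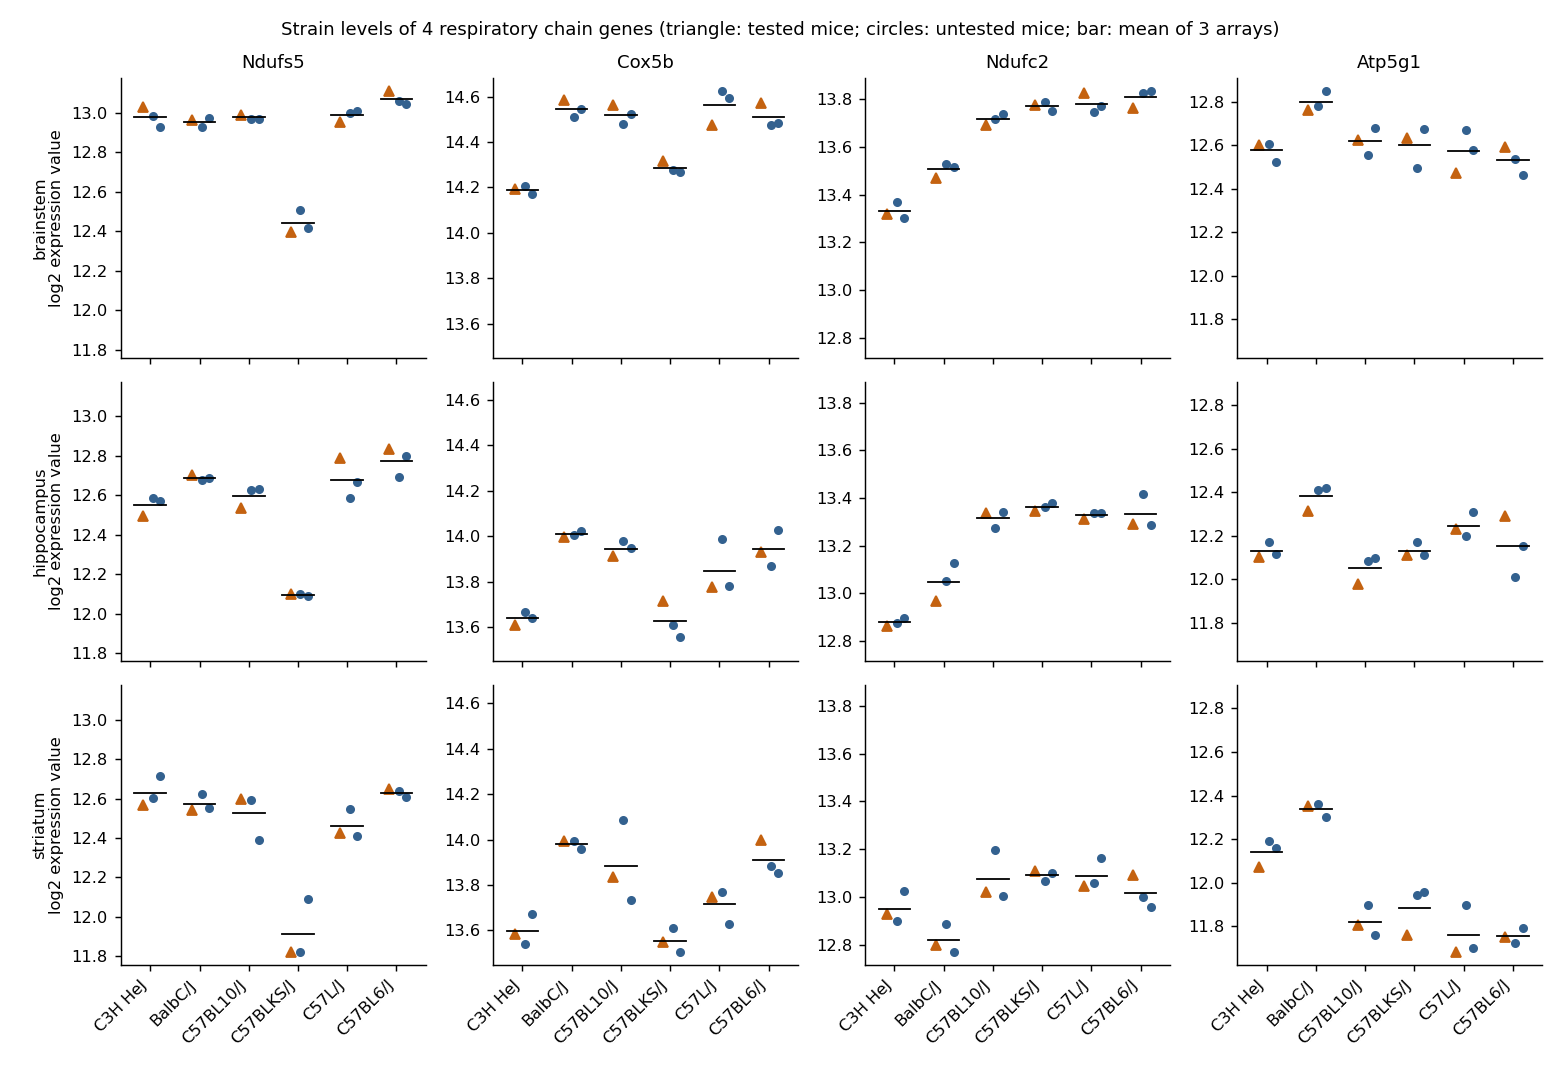
Deposited log2 level of Ndufs5, Cox5b, Ndufc2 and Atp5g1 in each of the 3 arrays of a strain and tissue, with C57BL6/J last. Ndufs5 is low in C57BLKS/J, Cox5b is low in C3H HeJ and C57BLKS/J, and Atp5g1 is high in BalbC/J. Ndufc2 is low in C3H HeJ of hippocampus and brainstem and in BalbC/J of all 3 tissues.

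Cox5b, the zinc-binding subunit of complex IV on chromosome 1, was low in C3H HeJ and in C57BLKS/J. In hippocampus it read 13.61, 13.66 and 13.64 in C3H HeJ and 13.71, 13.61 and 13.55 in C57BLKS/J, against 13.93, 13.87 and 14.03 in C57BL6/J. In brainstem it read 14.19, 14.20 and 14.17 in C3H HeJ and 14.32, 14.28 and 14.27 in C57BLKS/J, against 14.57, 14.48 and 14.48 in C57BL6/J. Neither strain overlapped C57BL6/J in either tissue. The C3H HeJ differences were -0.30, -0.31 and -0.32 in hippocampus, striatum and brainstem, and those of C57BLKS/J were -0.32 (adjusted p = 0.00352), -0.36 (adjusted p = 0.03) and -0.22 (adjusted p = 0.00831). The 4 bright probe sets of the 6 for Cox5b shared these signs.

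Ndufc2, a complex I subunit on chromosome 7, was called lower in C3H HeJ and BalbC/J in hippocampus and brainstem. In hippocampus it read 12.86, 12.88 and 12.90 in C3H HeJ and 12.97, 13.05 and 13.13 in BalbC/J, against 13.29, 13.42 and 13.29 in C57BL6/J. In brainstem it read 13.32, 13.37 and 13.30 in C3H HeJ and 13.47, 13.53 and 13.52 in BalbC/J, against 13.77, 13.83 and 13.83 in C57BL6/J. Both strains lay below all C57BL6/J arrays there, with C3H HeJ lower by -0.45 ± 0.04 (adjusted p = 2.12e-06) and -0.48 ± 0.03 (adjusted p = 2.98e-07). In striatum the C3H HeJ difference was -0.07 (adjusted p = 0.553) and that of BalbC/J -0.20 (adjusted p = 0.0773). BalbC/J missed the threshold there, but its striatum arrays, at 12.77 to 12.89, lay below all other 15, which began at 12.90. The test of strain by tissue called Ndufc2, and its 3 bright probe sets gave the same signs in hippocampus and brainstem.

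Atp5g1, 1 of the genes for subunit c of the ATP synthase rotor, was high in BalbC/J. Its striatal level was 12.35, 12.36 and 12.30 in BalbC/J, against 11.75, 11.72 and 11.79 in C57BL6/J, a difference of 0.58 ± 0.06 (adjusted p = 3.66e-05). In hippocampus it was 12.31, 12.41 and 12.42, against 12.29, 12.01 and 12.15, and in brainstem 12.76, 12.78 and 12.85, against 12.59, 12.54 and 12.46. BalbC/J arrays lay above all 15 others in each tissue, in hippocampus by a gap of only 0.0019. In C3H HeJ striatum Atp5g1 read 12.07, 12.19 and 12.16, and the difference from C57BL6/J was 0.39 ± 0.06 (adjusted p = 9.34e-04). A second, dim probe set at a mean level of 5.21 gave the opposite sign in each of these comparisons, with -0.37 for BalbC/J striatum and -0.32 for C3H HeJ striatum.

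Sdhc, a membrane anchor of complex II, was high in C3H HeJ. It read 12.84, 12.88 and 12.72 in C3H HeJ striatum, against 12.33, 12.36 and 12.40 in C57BL6/J striatum, a difference of 0.45 ± 0.07 (adjusted p = 8.64e-04). The differences were 0.22 in hippocampus and 0.30 in brainstem. In each tissue the C3H HeJ arrays lay above all 15 others, and the second probe set gave 0.19, 0.32 and 0.10 in hippocampus, striatum and brainstem.

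Ndufa12, an accessory subunit of complex I, was called lower in C3H HeJ, BalbC/J and C57L/J in every tissue, but on 1 probe set only. In brainstem it read 13.47, 13.52 and 13.30 in C3H HeJ, 13.40, 13.46 and 13.53 in BalbC/J and 13.46, 13.54 and 13.56 in C57L/J, against 14.07, 14.06 and 13.99 in C57BL6/J. None of those arrays reached the C57BL6/J range. The differences were -0.54, -0.50 and -0.62 in hippocampus, -0.30, -0.41 and -0.70 in striatum, and -0.61, -0.58 and -0.52 in brainstem for C3H HeJ, BalbC/J and C57L/J. The second probe set, of nearly the same brightness (13.15 against 13.38), gave -0.03, 0.03 and -0.01 in hippocampus, and the third gave 0.16, 0.24 and 0.16. The probe sets thus disagreed, and the level of the whole transcript cannot be read from the first alone. The brightest is of a kind (x_at) whose probes can match other transcripts, as were the probe sets of 21 members of the x or s kind.

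Ndufb10, another accessory subunit, was highest in C57BL6/J in hippocampus. It read 13.10, 13.12 and 13.01 in C3H HeJ, against 13.52, 13.54 and 13.61 in C57BL6/J, a difference of -0.48 ± 0.04 (adjusted p = 7.34e-07). C57BL6/J arrays lay above all 15 others, and the differences were -0.28 in BalbC/J, -0.36 in C57BLKS/J and -0.22 in C57BL10/J (adjusted p = 0.0124). Ndufa3 was low in C3H HeJ in every tissue, at -0.35, -0.17 and -0.26 in hippocampus, striatum and brainstem, and its second probe set gave -0.34, -0.14 and -0.25.

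C3H HeJ had the most calls against C57BL6/J in hippocampus and striatum, while in brainstem BalbC/J had 13 beside 12 for C3H HeJ. The direction in C3H HeJ depended on the tissue. In hippocampus 23 of 88 were called, 4 higher and 19 lower, beside 18.0% of all genes in either direction, 7.51% higher and 10.4% lower. In striatum 27 were called, 24 higher and 3 lower, beside 17.6% in either direction, 12.5% higher and 5.11% lower. In brainstem 12 were called, 2 higher and 10 lower, beside 19.3% in either direction, 11.6% higher and 7.71% lower. The median difference of the members was -0.09, 0.11 and 0.00 in hippocampus, striatum and brainstem, beside 0.00, 0.06 and 0.02 over all genes. In striatum the 3 C3H HeJ arrays lay above the other 15 in 20 of 88 members (22.7%), against 6.82% of all genes. Ndufb2 and Ndufv2 were called lower in hippocampus and higher in striatum, a pattern met by 0.279% of all genes.

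**Figure D5:**
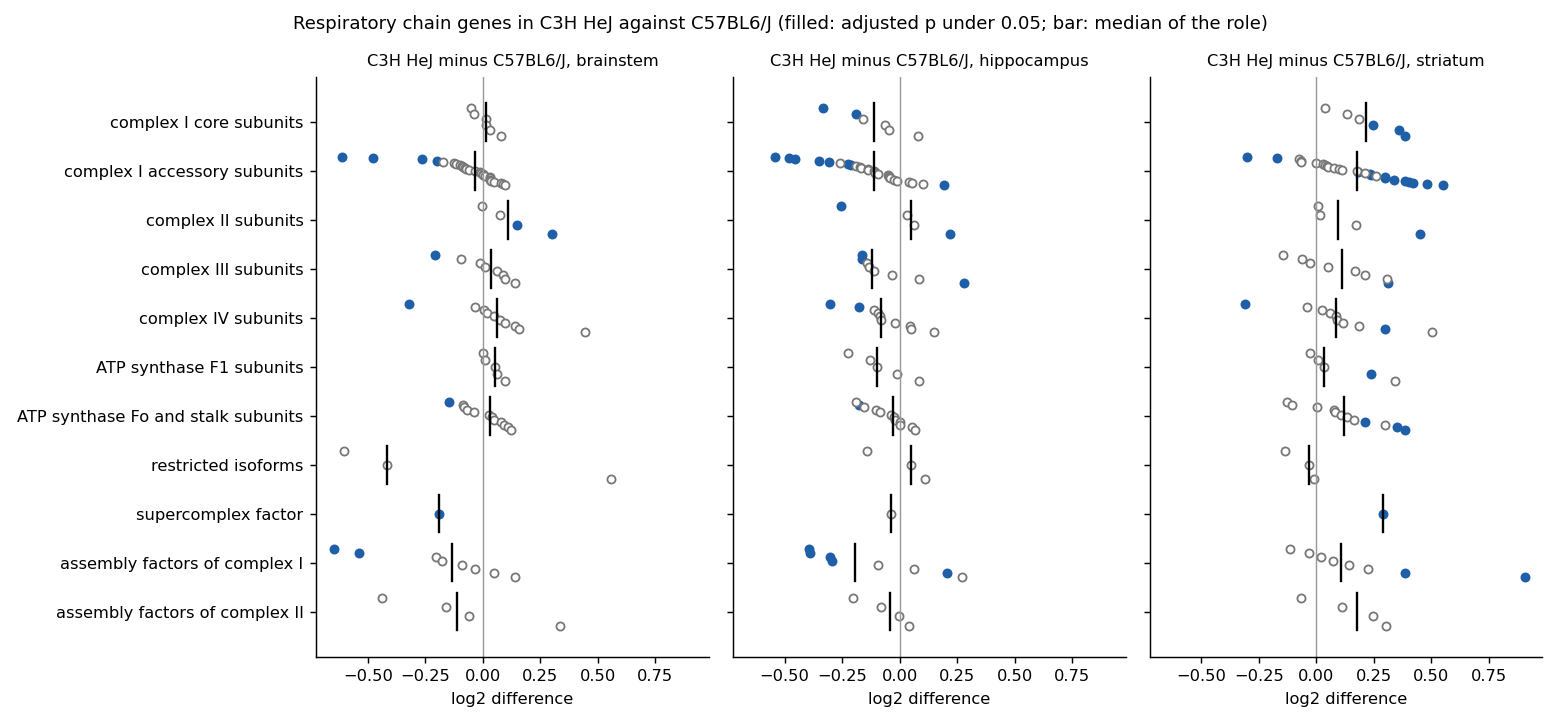
Log2 difference of each member between C3H HeJ and C57BL6/J in hippocampus, striatum and brainstem. Members lie mostly below 0 in hippocampus and mostly above 0 in striatum, with Ndufa12, Cox5b and Ndufa3 below 0 in all 3.

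Complex I held many of these calls. In C3H HeJ striatum 14 of its 33 measured subunits were higher and 2 lower, in hippocampus 1 was higher and 9 lower, and in brainstem none was higher and 4 lower. Ndufa8, an accessory subunit, was higher in striatum by 0.55 ± 0.10 (adjusted p = 0.00253). Of complex V, 4 of 17 were higher in striatum and none lower, of complex III 1 of 8 was higher and none lower, and complex IV had 1 higher and 1 lower of 10. Cox7a2l was also higher in striatum, by 0.29. In brainstem its difference was -0.19 (adjusted p = 0.0342), and -0.11 (adjusted p = 0.0658) without the array rich in cerebellar markers. Without that array Ndufa9 in C3H HeJ brainstem was at -0.14 (adjusted p = 0.0654), Sdhc at 0.35, Ndufa3 at -0.21, Ndufc2 at -0.46, Cox5b at -0.31 and Ndufa12 at -0.54, the last 5 still past the threshold, and 4 complex I subunits were again lower and none higher.

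These counts leaned on single arrays. The 27 striatal calls became 14 to 32 when 1 array was left out, with 17 when untested C3H HeJ array 1 was missing and 16 when array 2 was, and with 16 and 14 when untested C57BL6/J array 1 or 2 was missing. The 23 hippocampal calls became 14 without the second untested C3H HeJ array, 14 without the second untested C57BL6/J array and 36 without the first. The 12 brainstem calls became 7 without the tested C57BL6/J array. They became 11, 3 higher and 8 lower, without the C3H HeJ array rich in cerebellar markers. After median centring the C3H HeJ split was 1 higher and 11 lower in hippocampus, 16 and 2 in striatum and 0 and 16 in brainstem. Over all genes the split was then 626 higher and 935 lower of 12317, 1061 and 640 of 12320, and 732 and 1344 of 12484. In brainstem the median moved from 0.02 to -0.06 over all genes and from 0.00 to -0.08 over members.

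In C3H HeJ, 6 of 9 oligodendrocyte markers were also lower than in C57BL6/J in hippocampus (median -0.51) and in striatum (median -0.61), and 2 of 11 neuron markers were called in each, 1 higher and 1 lower. The same 9 markers had 5 lower and 1 higher in brainstem, and 3 lower and 0 higher without the array rich in cerebellar markers. Of the 11 neuron markers, 4 were higher and 0 lower in brainstem, and 3 higher and 1 lower without that array. Choroid plexus markers averaged 5.44 to 5.64 in C3H HeJ striatum, against 5.34 to 7.90 in C57BL6/J striatum. The part of these markers in the member differences was not tested. Of 17 tricarboxylic acid cycle genes, 1 was called in hippocampus, 3 in striatum and 1 in brainstem. Without the array rich in cerebellar markers 3 were called in brainstem, 2 higher and 1 lower. In striatum 6 of 14 cytochrome oxidase assembly genes and 5 of 14 biogenesis regulators were higher and none lower. Cox18, needed to insert a complex IV subunit into the membrane, was higher by 0.71, 1.22 and 0.89 in hippocampus, striatum and brainstem, and the regulator Yy1 by 0.41, 0.77 and 0.45. Without the array rich in cerebellar markers the brainstem values were 0.93 for Cox18 and 0.39 for Yy1.

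BalbC/J had 14 calls in hippocampus, 5 higher and 9 lower, beside 15.1% of all genes, 6.29% higher and 8.76% lower. In striatum it had 4, 3 higher and 1 lower, beside 7.68% of all genes, 4.16% higher and 3.51% lower. In brainstem it had 13, 8 higher and 5 lower, beside 12.3% of all genes, 8.46% higher and 3.83% lower. In brainstem the cerebellar markers averaged 9.55 to 10.68 in BalbC/J, against 8.51 to 8.96 in C57BL6/J, and choroid plexus markers 8.01 to 9.27 in BalbC/J, against 9.17 to 9.79 in C57BL6/J. The part of this tissue in the member differences was not tested. These splits moved with scaling, to 0 higher and 6 lower in hippocampus after centring, beside 523 and 761 of 12317 genes. After quantile normalization they were 4 higher and 3 lower in striatum, beside 534 and 456 of 12320 genes. In brainstem that scaling gave 4 higher and 7 lower, beside 736 and 582 of 12484 genes. Atp5g1 and Atp5j2, subunit f of ATP synthase, were called higher in all 3 tissues, with Atp5j2 at 0.22, 0.31 and 0.16 in hippocampus, striatum and brainstem. Sdha was higher in brainstem on its brightest probe set, with 13.35, 13.37 and 13.32 in BalbC/J, against 13.09, 13.08 and 13.03 in C57BL6/J, a difference of 0.28 ± 0.03 (adjusted p = 4.19e-05). The mean over its 4 probe sets was lower by -0.36. On the brightest probe set, Sdha was also called higher in C3H HeJ and C57BL10/J brainstem, by 0.15 and 0.13. The C57BL6/J brainstem arrays lay below all other 15 for Sdha, and likewise for Atp5j2. In BalbC/J hippocampus 6 of 9 oligodendrocyte markers were lower (median -0.74), and their part was not tested. The 14 hippocampal calls became 9 without the tested BalbC/J array, the first untested BalbC/J array or the second untested C57BL6/J array. The 13 brainstem calls became 5 to 8 without any 1 of the BalbC/J or C57BL6/J arrays. They became 23 without the second untested C3H HeJ array, the one rich in cerebellar markers. In that fit calls also rose from 0 to 8 of 9 cerebellar markers and from 2 to 8 of 11 neuron markers. Electron carriers stayed at 4 of 14 and muscle markers at 0 of 4. The share of all genes called in that fit is not given here.

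The 3 other strains, all of the C57 family, differed in few members. C57BLKS/J had 7 calls in hippocampus, all lower, beside 5.57% of all genes, 1.90% higher and 3.67% lower. In striatum it had 3, all lower, beside 2.18%, 1.19% higher and 0.982% lower. In brainstem it had 1 higher and 2 lower, beside 2.74%, 1.43% higher and 1.31% lower. Besides Ndufs5 and Cox5b, its striatal call was Ndufa9, an accessory subunit, at -0.32 ± 0.07 (adjusted p = 0.0204). C57L/J had 1 call in hippocampus, lower, beside 4.39% of all genes, 1.81% higher and 2.58% lower. In striatum it had 1 higher and 3 lower, beside 4.30%, 2.16% higher and 2.14% lower, and in brainstem 1 higher and 1 lower, beside 3.28%, 1.92% higher and 1.36% lower. Ndufa12 was among them each time, with Ndufa9 at -0.34 (adjusted p = 0.00859) and Cox7a2 at 0.24 (adjusted p = 0.0369) in striatum. Cortical markers averaged 8.25 to 10.48 in C57L/J striatum, against 8.05 to 8.93 in C57BL6/J, and their part in these calls was not tested. Ndufaf8, an assembly factor of complex I, was 0.23 higher in C57L/J brainstem (adjusted p = 0.0488), and its second probe set gave -0.0002.

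C57BL10/J had 1 higher and 3 lower in hippocampus, beside 2.25% of all genes, 0.682% higher and 1.57% lower. It had 0 calls in striatum by limma (0.536%), where 4 members had an unadjusted p under 0.05, and 2 in brainstem, both higher, beside 2.75%, 1.74% higher and 1.01% lower. In hippocampus Uqcrh, the hinge subunit of complex III, was lower by -0.24 ± 0.05 (adjusted p = 0.0153) and the assembly factor Ndufaf1 by -0.40 ± 0.08 (adjusted p = 0.0160). In brainstem Uqcrq, a small complex III subunit, read 12.66, 12.57 and 12.66 in C57BL10/J and 12.73, 12.62 and 12.53 in C57BLKS/J, against 12.42, 12.20 and 12.27 in C57BL6/J. Neither strain overlapped C57BL6/J, and both differences were 0.33 (adjusted p = 0.0235 and 0.0201). Its hippocampal calls became 0 without its tested array or the second untested C57BL6/J array, and the C57BLKS/J hippocampal calls became 3 to 14 without single arrays of C57BLKS/J or C57BL6/J. Without the second untested C3H HeJ array, the brainstem calls were 14 for C57BL10/J, 9 for C57L/J and 8 for C57BLKS/J. The share of all genes called in that fit is not given here, so a general rise cannot be told from one of the members.

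Strain differences themselves differed between tissues in 34 of 89 members, beside 17.4% of all genes, and 18 of these 34 were among the 33 complex I subunits. Ndufv2, a core iron-sulfur subunit, read 12.91, 13.02 and 12.92 in C3H HeJ hippocampus, against 13.28, 13.22 and 13.36 in C57BL6/J hippocampus. In striatum it read 13.09, 13.06 and 13.05 in C3H HeJ, against 12.86, 12.83 and 12.77 in C57BL6/J. C3H HeJ was thus below all C57BL6/J arrays in hippocampus and above them in striatum, with differences of -0.33, 0.24 and -0.04 in hippocampus, striatum and brainstem (moderated F 8.24, adjusted p = 5.47e-05). Without the array rich in cerebellar markers the brainstem difference of Ndufv2 was 0.03 (adjusted p = 0.791). The second probe set gave -0.10, 0.29 and -0.02, and the third -0.01, 0.08 and -0.01.

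Ndufb2, an accessory subunit, read 12.74, 12.88 and 12.79 in C3H HeJ hippocampus, against 13.04, 12.96 and 13.04 in C57BL6/J hippocampus, and 12.90, 12.97 and 13.01 in C3H HeJ striatum, against 12.72, 12.65 and 12.61 in C57BL6/J striatum. No arrays of the pair overlapped in either tissue, and the second probe set, at -0.14 and 0.39, gave the same signs as -0.21 and 0.30. Ndufa5 followed the same order at -0.11, 0.23 and 0.00, while Ndufa9 was at -0.31, 0.03 and -0.20. Their adjusted p were 1.16e-04 for Ndufb2, 1.96e-04 for Ndufa5 and 1.08e-04 for Ndufa9. With median centring 22 members were called, beside 1763 of 13199 genes. With quantile normalization 33 were called, beside 2293 of 13199 genes. Without the array rich in cerebellar markers the count was again 34, of which 17 were complex I subunits. The matching share of all genes is not given here.

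Testing for prepulse inhibition gave no call. None of the 88 members, and 0.00% of all genes, passed an adjusted p of 0.05 in any tissue by limma, while 2, 1 and 1 members had an unadjusted p under 0.05 in hippocampus, striatum and brainstem. Ndufaf3, an assembly factor of complex I, had a lowest, median and highest level of 9.24, 9.44 and 9.66 in the 6 tested hippocampus arrays, against 9.37, 9.56 and 9.70 in the 12 untested ones, a difference of -0.12 ± 0.05 (unadjusted p = 0.0151, adjusted p = 1). Ndufa5 had 14.06, 14.13 and 14.19 in tested brainstem, against 14.00, 14.07 and 14.13 in untested brainstem, a difference of 0.05 (adjusted p = 0.986). The groups overlapped for both genes. The next smallest p belonged to Ndufb10 in hippocampus (-0.06), Uqcr10 and Uqcrh in striatum (-0.08 for both) and Atp5c1 in brainstem (0.04), whose groups also overlapped.

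The readings of second probe sets bear on all these calls. Of the 119 strain calls in members, 77 had a second probe set above the filter level, which gave the same sign in 63 and the opposite sign in 14. Of the 249 calls between tissues, 138 had one, and the sign was the same in 124 and opposite in 14. Nothing in the labels says whether arrays of a group are separate litters or cages, so p-values measure the spread between these pools.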

How the data were processed

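Expression was measured on 54 Affymetrix arrays, each a pool of 3 mice. The deposited values are on a log2 scale. The submitters' processing notes name R 2.6.1, affy 1.16.0, RMA, GCRMA 2.10.0 and limma 2.12.0, and do not say which of RMA and GCRMA made the values. Values were used as deposited, so probe affinity makes levels of different genes not comparable. Array precision is limited by the number of arrays.

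Gene names came from the platform annotation, leaving out probe sets with several symbols. Within a tissue, limma 3.58.1 (R 4.3.3) fitted strain and testing over 18 arrays with a mean-variance trend. Across tissues it fitted strain and testing within tissue over 54 arrays, without pool as a block. Tests were two-sided, with Benjamini-Hochberg adjustment over all genes above the 40th percentile on at least 3 arrays. The fits were tested on simulated data. Members and lists were chosen with earlier results of these data known. Genes were named by rank of p or of difference within each comparison, with the isoform pairs and 1 fixed subunit per complex. Named for other reasons, after their values were seen, were genes missing the threshold or the filter. Alternatives were other filters, probe set rules, scalings, no trend, the replicate block and leaving out arrays.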

Additional observations from a re-analysis of the deposited data

Results flagged for a closer look

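Strain differences that differed between tissues by the interaction test were singled out for 5 members and for the count of such members. The moderated F was 8.24 for Ndufv2, 7.66 for Ndufa9, 7.59 for Ndufb2, 7.17 for Ndufa5 and 6.45 for Atp5g1, and 34 of 89 members passed. No array stood apart by its gap among the 6 tested arrays of a tissue for the 6 members with the smallest p of testing.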

How the results depend on the processing

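Of 85 results for named members, 53 stayed past the threshold under every alternative and 9 changed sign under at least 1. On the second brightest probe set the difference was 0.0277 for Ndufa12 in BalbC/J hippocampus, 0.14 for Ndufa12 in BalbC/J striatum, 0.0747 for Ndufa12 in C57L/J brainstem, -0.32 and -0.37 for Atp5g1 in C3H HeJ and BalbC/J striatum, -0.0002 for Ndufaf8 in C57L/J brainstem, and 0.10 for Ndufs4 and 0.0738 for Sdha between hippocampus and striatum. On the mean of probe sets it was 0.15 for Ndufa12 in BalbC/J striatum and -0.36 for Sdha in BalbC/J brainstem. The cause was not tested.

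Median centring left 11 members called among the 6 strains in hippocampus and 25 in striatum, 22 for strain by tissue, 12 for C3H HeJ, 6 for BalbC/J, 0 for C57BL10/J and 2 for C57BLKS/J in hippocampus, 2 for C57L/J in striatum, and 0 for C57BL10/J and 1 for C57L/J in brainstem. Quantile normalization gave 3 for C57L/J in hippocampus, 7 for BalbC/J in striatum, and 1 each for C57BL10/J and C57L/J in brainstem. Those last 2 counts were also 1 each with no filter, with no intensity trend and with the replicate block. Without the trend C57L/J striatum had 2. The mean of probe sets gave 2 for C57L/J hippocampus and 1 for C57BL10/J striatum, and the second brightest gave 4 for C57BLKS/J and 2 for C57L/J in hippocampus, and 1 and 5 for C57BL10/J in striatum and brainstem.

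Arrays were left out singly, and a group of 2 then borrowed the spread of the others. In hippocampus, calls ranged over 23 to 43 for the 6 strains, 14 to 36 for C3H HeJ, 9 to 18 for BalbC/J, 0 to 7 for C57BL10/J, 3 to 14 for C57BLKS/J and 1 to 6 for C57L/J. In striatum, calls ranged over 21 to 46 for the 6 strains, 14 to 32 for C3H HeJ, 2 to 7 for BalbC/J, 0 to 1 for C57BL10/J, 1 to 4 for C57BLKS/J and 2 to 5 for C57L/J. In brainstem, calls ranged over 13 to 27 for the 6 strains, 7 to 16 for C3H HeJ, 5 to 23 for BalbC/J, 0 to 14 for C57BL10/J, 2 to 8 for C57BLKS/J and 1 to 9 for C57L/J. Leaving out 1 array gave 85 to 88 for brainstem against hippocampus, 86 to 87 for brainstem against striatum, 73 to 76 for hippocampus against striatum, 25 to 41 for strain by tissue and 0 for testing in each tissue.

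Array numbers showed no clear pairing of striatum with the other tissues, and a weak positive correlation for hippocampus with brainstem. Whether same-numbered arrays of those 2 tissues hold the same mice is not known. Deviations of same-numbered arrays correlated over 0.1 in 4, 10 and 2 of 18 pairs, with medians of 0.01, 0.11 and -0.01 for hippocampus with striatum, hippocampus with brainstem and striatum with brainstem. With the replicate block 34 members were called for strain by tissue, and 30, 38 and 17 among the 6 strains in hippocampus, striatum and brainstem.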
